A study of Sus scrofa with 8 samples.

Results

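The genes described here are 8 transcription regulators at the output and the edges of the circadian clock: DBP, TEF, HLF, NFIL3, BHLHE40, BHLHE41, CIART and RORA. They were taken by gene symbol from a table of 23235 pig genes, and all 8 were found once. RNA was sequenced from the longissimus dorsi, the large muscle along the back, of Duroc x Landrace x Yorkshire weaned piglets. Piglets of 28 days of age were randomised to 6 per group, adapted for 5 days and then dosed by gavage every morning for 23 days. The control group received saline and the melatonin group received melatonin at 5 mg per kg of body weight. Both groups ate the same basal diet and neither carried a genetic change. There were 4 control and 4 melatonin libraries, named below by group and replicate number. The labels do not say how libraries relate to piglets, so p-values measure only the spread between these samples. The hour at which muscle was taken is not given in the sources used here.

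In the clock, CLOCK and ARNTL (also called BMAL1) bind E-box sequences and switch on their own repressors, the PER and CRY proteins, as well as a layer of output regulators. DBP, TEF and HLF are PAR bZIP activators that bind D-box sequences, and NFIL3 (also called E4BP4) is the repressor that competes with them for the same sequences. BHLHE40 and BHLHE41 (DEC1 and DEC2) and CIART (CHRONO) repress CLOCK and ARNTL at the E-box, and RORA activates ARNTL at the response elements where the NR1D1 and NR1D2 proteins repress it. In skeletal muscle these factors pass time of day and feeding signals on to genes of metabolism, and several of them also answer to stimuli outside the clock, such as glucocorticoids for NFIL3 and hypoxia for BHLHE40.

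Total counts per library ran from 53471667 to 60629098. Of 6 skeletal muscle markers 5 were measured, and their summed level of 73488 to 104310 FPKM (fragments normalised to transcript length and to sequencing depth) matched the labelled tissue in all 8 libraries. Melatonin replicates 1 and 3 stood apart from the other 6 libraries. Their 6 fibroblast and matrix markers summed to 8451 and 2522 FPKM, against 478 to 936 FPKM in controls and 655 and 663 FPKM in melatonin replicates 2 and 4. Their 4 tendon markers summed to 218 and 54.3 FPKM, against 0.779 to 1.34 FPKM elsewhere. Adipocyte markers summed to 21.8 to 126 FPKM in controls and 13.7 to 219 FPKM after melatonin. Endothelial markers spanned 38.3 to 55.5 FPKM and 38.7 to 56.9 FPKM, and macrophage markers 10.9 to 24.1 FPKM and 8.86 to 34.4 FPKM. T cell markers were near 0, at 0.462 to 0.950 FPKM and 0.275 to 0.600 FPKM. The part of these other cells in the results below was not tested, and each member is also given without melatonin replicates 1 and 3.

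Over all 9821 genes with a mean of at least 1 FPKM, edgeR's quasi-likelihood test with Benjamini-Hochberg adjustment called 0 genes (0.0%) between melatonin and control at an adjusted p under 0.05, and 1032 genes (10.5%) had an unadjusted p under 0.05. All 8 clock output regulators passed the level filter, and 0 of 8 were called. DESeq2 also called 0 of 8, where it called 65 genes (0.662%) in all. At an unadjusted p under 0.05 stood 3 of 8 (37.5%): NFIL3 with the higher mean after melatonin, where 6.67% of all genes did the same, and TEF and CIART with the lower mean, where 3.84% did. In limma on log2(FPKM + 1) the count was 1 of 8, NFIL3 alone, and TEF and CIART missed the threshold. With each library left out in turn NFIL3 and TEF stayed under 0.05 in 8 of 8 fits and CIART in 2 of 8. Without melatonin replicates 1 and 3, 1 of 8 did (CIART, lower), where 4.83% of all genes did in either direction. The FPKM values of the groups overlapped for 8 of 8, and 2.2% of all genes did not overlap. Of the 8 log2 fold changes 2 lay above 0 and 6 below, with a median of -0.30, and 49.8% of all genes lay above 0. No difference between groups in these 8 genes therefore held up against the spread between libraries after adjustment.

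**Figure D1:**
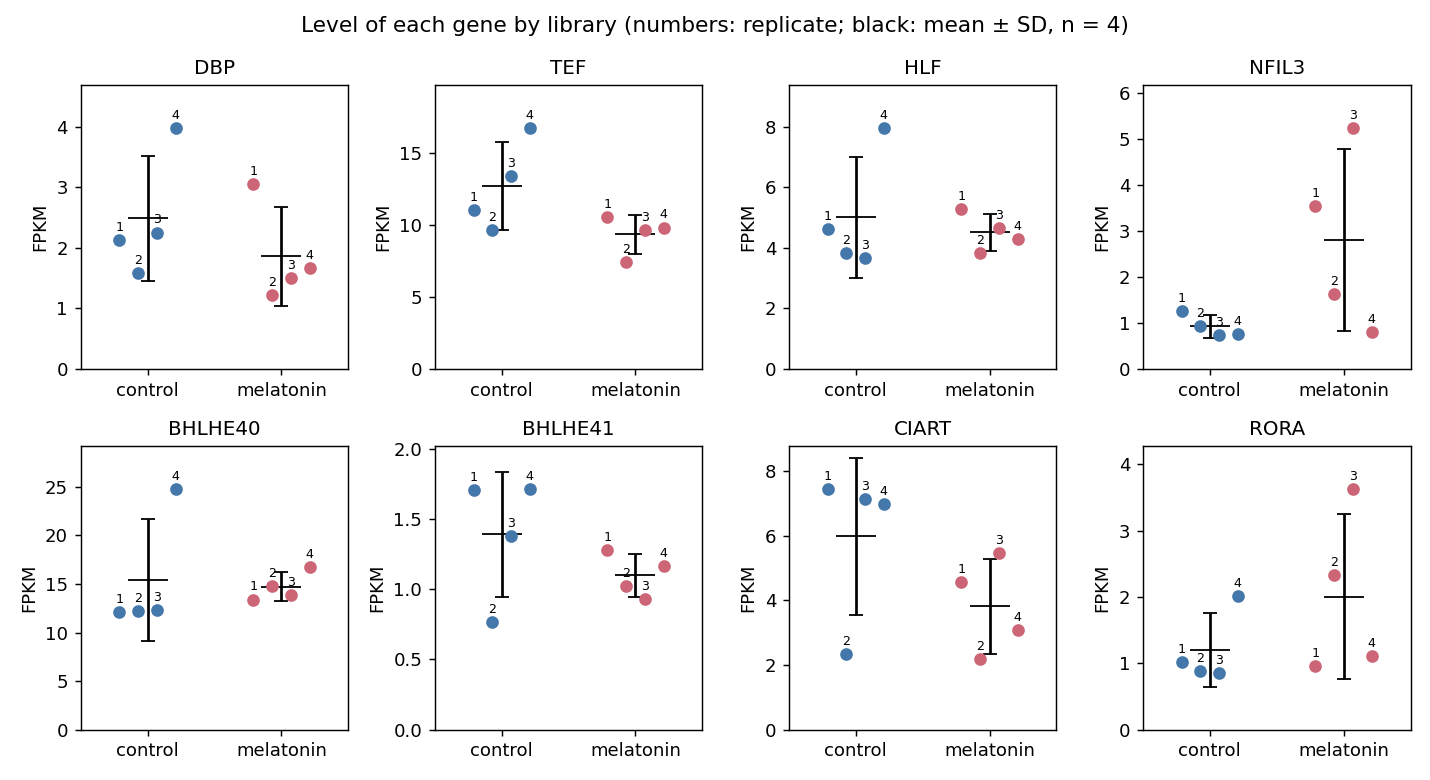
FPKM of each regulator in the 4 control and 4 melatonin libraries, each point 1 library with its replicate number, black lines the group mean ± SD (n = 4). BHLHE40 reached 24.8 FPKM in control replicate 4, and NFIL3 spanned 0.810 to 5.23 FPKM after melatonin, while the groups overlapped in all 8 genes.

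TEF, the PAR bZIP factor with the highest level here, lies on chromosome 5 (7119359 to 7144498, minus strand, Sscrofa11.1), with 2 annotated transcripts. Controls, in the order of their replicate numbers here and below, measured 11.04, 9.65, 13.4 and 16.7 FPKM, and melatonin libraries 10.5, 7.42, 9.62 and 9.81 FPKM. The 3 highest libraries were all controls, and control replicate 2 fell inside the melatonin range. Group means were 12.7 ± 3.08 FPKM (SD, n = 4) and 9.35 ± 1.35 FPKM (SD, n = 4). The log2 fold change was -0.51 ± 0.17 (SE), a ratio of 0.703, with an unadjusted p of 0.0151 and an adjusted p of 0.440 in edgeR's quasi-likelihood test. DESeq2 gave an adjusted p of 0.209. Without melatonin replicates 1 and 3 the log2 fold change was -0.43 ± 0.23 (SE). TEF rested on at least 2037 counts in every library, so counting error was at most 2.22% of a value.

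DBP, a PAR bZIP gene that CLOCK and ARNTL switch on through E-boxes, lies on chromosome 6 (53986959 to 53993020, minus strand). Control libraries held 2.13, 1.58, 2.25 and 3.97 FPKM and melatonin libraries 3.05, 1.22, 1.49 and 1.66 FPKM. Control replicate 4 and melatonin replicate 1 were the highest of their groups, and the other 6 libraries lay between 1.22 and 2.25 FPKM. Means were 2.48 ± 1.03 and 1.86 ± 0.817 FPKM (SD, n = 4 each), and the log2 fold change was -0.51 ± 0.32 (SE; edgeR quasi-likelihood adjusted p = 0.570). This size equals that of TEF, with a wider error. Leaving out control replicate 4 gave -0.22, and leaving out melatonin replicates 1 and 3 gave -0.65.

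HLF, the third PAR bZIP factor, lies on chromosome 12 (31589337 to 31643594, plus strand). It measured 4.62, 3.83, 3.65 and 7.94 FPKM in controls and 5.28, 3.84, 4.66 and 4.28 FPKM after melatonin. All libraries but control replicate 4 fell between 3.65 and 5.28 FPKM. Means were 5.01 ± 2.00 and 4.51 ± 0.613 FPKM (SD, n = 4 each). The log2 fold change of -0.22 ± 0.22 (SE; edgeR quasi-likelihood adjusted p = 0.712) turned to 0.05 without control replicate 4 and was -0.18 without melatonin replicates 1 and 3.

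NFIL3, the repressor on the opposite side of the D-box, lies on chromosome 14 (2588896 to 2603255, minus strand). Its FPKM was 1.26, 0.937, 0.743 and 0.750 in controls, and 3.54, 1.62, 5.23 and 0.810 after melatonin. Melatonin replicates 1, 2 and 3 lay above every control, and melatonin replicate 4 lay inside the control range. Means were 0.922 ± 0.242 and 2.80 ± 1.98 FPKM (SD, n = 4 each). The log2 fold change of 1.41 ± 0.44 (SE), a ratio of 2.65, was the largest of the 8 in size, with an unadjusted p of 0.00984 and an adjusted p of 0.440 in edgeR's quasi-likelihood test and an adjusted p of 0.0901 in DESeq2. The lowest adjusted p of any regulator under any setting also belonged to NFIL3, at 0.0689 in edgeR without melatonin replicate 4, where its log2 fold change was 1.68.

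The 2 highest NFIL3 libraries were melatonin replicates 3 and 1, the libraries with the raised matrix and tendon markers. Without them the NFIL3 log2 fold change was 0.49 ± 0.37 (SE). In melatonin replicate 2 the summed matrix markers were inside the control range and NFIL3, at 1.62 FPKM, was above the highest control. The sum is mostly collagen RNA. Of its genes, PDGFRA was also above every control in melatonin replicate 2, at 2.83 FPKM against at most 2.24 FPKM. COL1A1, COL1A2, COL3A1, DCN and LUM were inside their control ranges. Summed macrophage markers had the same order as NFIL3 among the 4 melatonin libraries, at 34.4, 28.7, 22.2 and 8.86 FPKM in replicates 3, 1, 2 and 4. That order was not particular to macrophage markers. The summed glucocorticoid targets (163, 101, 93.3 and 47.4 FPKM) and hypoxia targets (154, 119, 102 and 89.3 FPKM) read below had it too. So did the sums of the core loop, clock protein turnover and clock-controlled output genes, while adipocyte and endothelial markers had other orders. For the clock-controlled outputs, replicates 2 and 4 were nearly tied, at 948 and 947 FPKM. PER1 and KLF9 each belong to the glucocorticoid targets and to another of these lists. These sums carry no TMM correction, and the TMM factors of replicates 3, 1, 2 and 4 were 1.185, 1.185, 0.923 and 0.866. The part of scaling in the shared order was not tested. Controls did not show the order for macrophage markers: control replicate 4 had 24.1 FPKM of them beside 0.750 FPKM of NFIL3. The part of these cells in the NFIL3 levels was not tested, and in bulk RNA fewer cells of a type and less RNA per cell cannot be told apart. The lowest NFIL3 count was 90, a counting error of 10.5%, so counting error was small against the 6.45-fold range after melatonin.

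Activators and repressor of the D-box were also set side by side as the summed FPKM of DBP, TEF and HLF over the FPKM of NFIL3. This ratio was 14.1, 16.1, 26.0 and 38.2 in controls and 5.33, 7.70, 3.02 and 19.4 after melatonin. Melatonin replicates 1, 2 and 3 lay below every control, and melatonin replicate 4 lay among the controls. TEF made up 55.8% to 69.4% of the activator sum in every library, so the numerator was mostly TEF, and the denominator carried most of the range. The ratio was composed from genes whose differences were already in view and carries no test. It is a ratio of RNA levels per length and not of proteins.

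**Figure D2:**
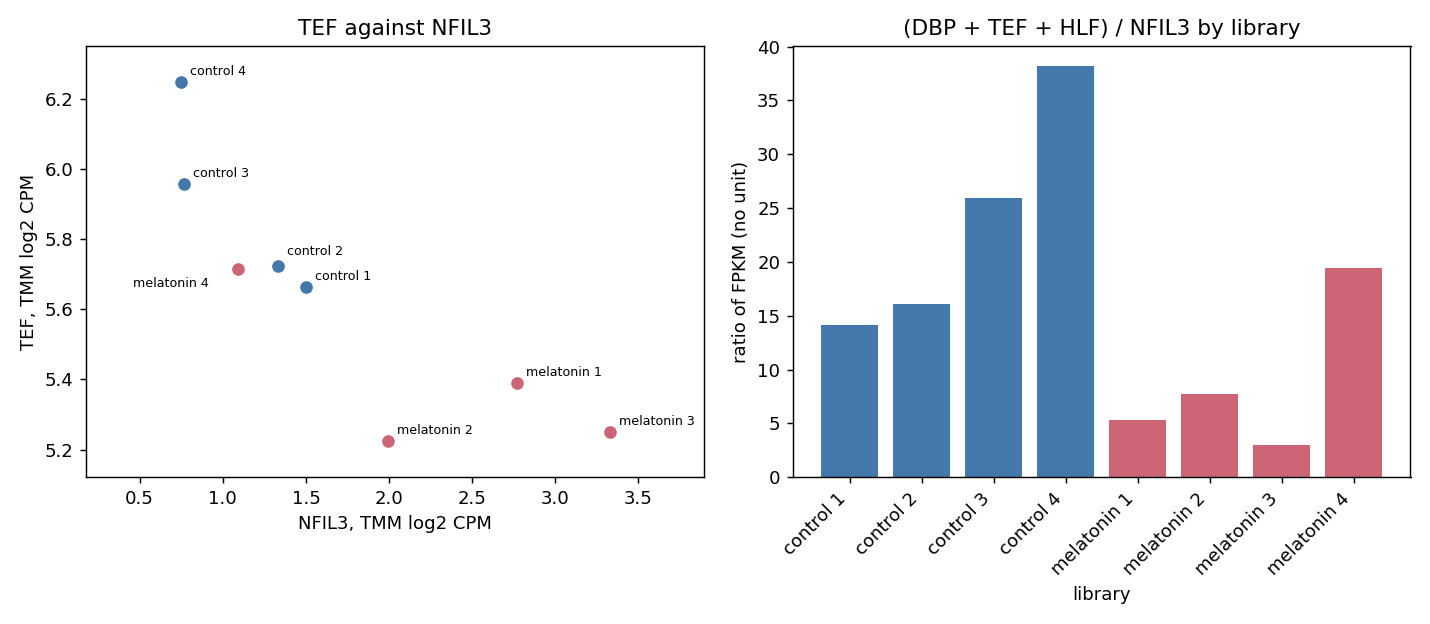
Left, TEF against NFIL3 as TMM-scaled log2 CPM, each point 1 library (blue control, red melatonin); right, bars of the FPKM ratio of DBP, TEF and HLF together over NFIL3 in each library. Melatonin replicates 1, 2 and 3 lie at the lower right and have the 3 lowest ratios, 5.33, 7.70 and 3.02, while melatonin replicate 4 lies among the controls at 19.4.

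BHLHE40, an E-box repressor, had the highest level of the 8 and lies on chromosome 13 (61526116 to 61533674, plus strand). It measured 12.1, 12.3, 12.3 and 24.8 FPKM in controls and 13.4, 14.8, 13.9 and 16.8 FPKM after melatonin. In FPKM, control replicates 1 to 3 lay within 12.2 ± 0.0747 (SD, n = 3) and below all 4 melatonin libraries. Control replicate 4 lay above all of them, at 2.03 times the mean of the other controls. The order differed in CPM, counts scaled to library size with edgeR's TMM factors. Control replicates 1 to 3 then stood at 39.8, 48.1 and 40.8, and melatonin libraries at 38.1, 53.2, 39.2 and 64.3. Melatonin replicates 1 and 3 were thus below every control in CPM, while control replicate 4, at 80.8, was still the highest. Group means were 15.4 ± 6.27 and 14.7 ± 1.49 FPKM (SD, n = 4 each). The log2 fold change was -0.10 ± 0.26 (SE; edgeR quasi-likelihood adjusted p = 0.897). It took the other sign without control replicate 4, at 0.18, and without melatonin replicates 1 and 3, at 0.16.

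BHLHE41, its close relative, lies on chromosome 5 (47686404 to 47692762, plus strand) and had the lowest level of the 8. Controls measured 1.71, 0.769, 1.38 and 1.71 FPKM and melatonin libraries 1.28, 1.02, 0.933 and 1.17 FPKM. Control replicate 2 was the lowest of all 8 libraries and the other 3 controls were the 3 highest. Means were 1.39 ± 0.443 and 1.10 ± 0.153 FPKM (SD, n = 4 each), with a log2 fold change of -0.38 ± 0.24 (SE; edgeR quasi-likelihood adjusted p = 0.572), and -0.21 without melatonin replicates 1 and 3.

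CIART, a vertebrate repressor of CLOCK and ARNTL, lies on chromosome 4 (98800931 to 98804739, minus strand). The deposited gene model spans 3.809 kb, where the RefSeq gene spans 8.725 kb, so the 5' side of the RefSeq gene lies outside the model. It measured 7.44, 2.34, 7.13 and 6.98 FPKM in controls, and 4.55, 2.18, 5.45 and 3.07 FPKM after melatonin. The 3 highest libraries were controls, while control replicate 2 was lower than 3 of the 4 melatonin libraries. Means were 5.97 ± 2.43 and 3.81 ± 1.47 FPKM (SD, n = 4 each). The log2 fold change was -0.74 ± 0.32 (SE), a ratio of 0.600, with an unadjusted p of 0.0450 and an adjusted p of 0.469 in edgeR's quasi-likelihood test. DESeq2 gave an adjusted p of 0.328. Without melatonin replicates 1 and 3 the log2 fold change was -1.03 ± 0.41 (SE). The 3 lowest CIART libraries (control replicate 2 and melatonin replicates 2 and 4) were also the 3 with a TMM factor, edgeR's scaling between libraries, under 1 (0.851, 0.923 and 0.866). Their summed muscle markers, at 104310, 98032 and 93244 FPKM, were the 3 highest.

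RORA, a nuclear receptor that activates ARNTL, lies on chromosome 1 (111427235 to 111477703, plus strand). The deposited gene model covers 50.5 kb with 4 transcripts, where the RefSeq gene of the same build spans 763.8 kb, so counts stand for the 3' portion of the gene. Controls measured 1.02, 0.890, 0.852 and 2.02 FPKM and melatonin libraries 0.963, 2.32, 3.63 and 1.11 FPKM. High libraries were control replicate 4 and melatonin replicates 2 and 3, and the remaining 5 lay between 0.852 and 1.11 FPKM. Means were 1.20 ± 0.554 and 2.01 ± 1.24 FPKM (SD, n = 4 each). The log2 fold change was 0.65 ± 0.42 (SE; edgeR quasi-likelihood adjusted p = 0.575). It rested in good part on single libraries, at 0.33 without melatonin replicate 3 and 0.99 ± 0.42 without control replicate 4, where the unadjusted p was 0.0466. Without melatonin replicates 1 and 3 it was 0.63 ± 0.39 (SE).

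**Figure D3:**
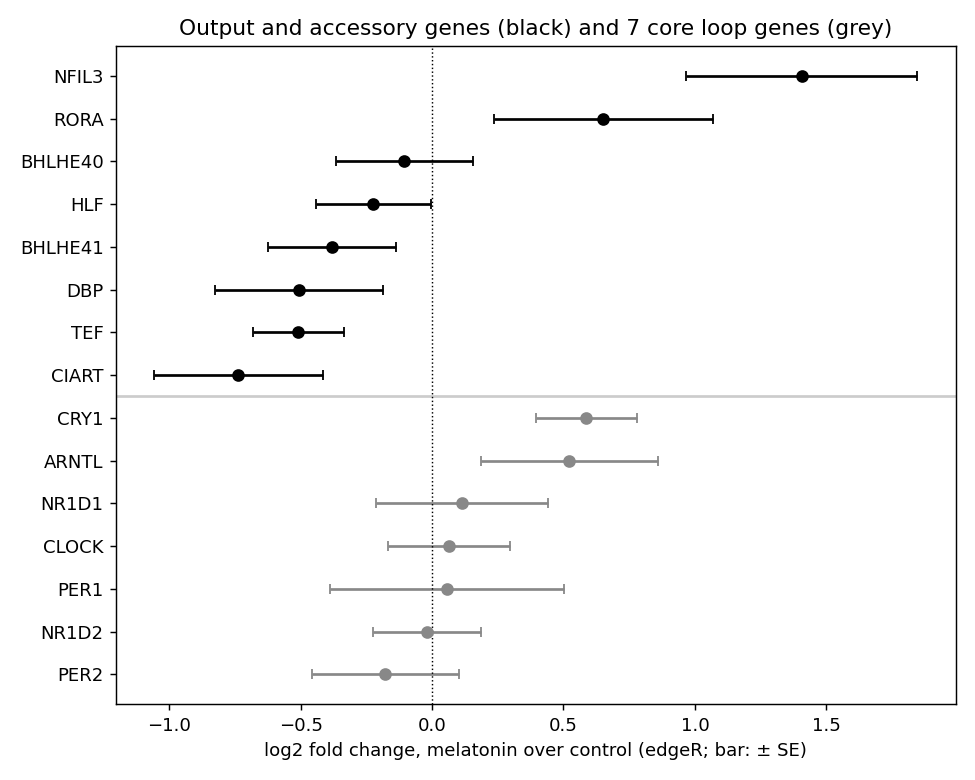
edgeR log2 fold change, melatonin over control, of the 8 regulators (black) and of 7 core clock genes (grey), each point with its standard error as a bar. NFIL3 lies farthest right at 1.41 and CIART farthest left at -0.74, and the core genes lie between -0.18 and 0.59.

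By mean FPKM over the 8 libraries the order was BHLHE40 at 15.0, TEF at 11.02, CIART at 4.89, HLF at 4.76, DBP at 2.17, NFIL3 at 1.86, RORA at 1.60 and BHLHE41 at 1.24. Neighbours were compared within libraries on the log2(FPKM + 1) scale by a two-sided exact sign-flip permutation test, 7 comparisons with Benjamini-Hochberg adjustment, in which 8 libraries can give no p below 0.00781. BHLHE40 exceeded TEF by 0.41 ± 0.32 (SD, n = 8), higher in 7 of 8 libraries (exact permutation adjusted p = 0.0365). TEF exceeded CIART by 1.09 in 8 of 8 libraries, and HLF exceeded DBP by 0.88 in 8 of 8 (exact permutation adjusted p = 0.0273 for both). CIART and HLF did not differ beyond their spread (exact permutation adjusted p = 0.883), and neither did DBP and NFIL3 (0.697), NFIL3 and RORA (0.883) or RORA and BHLHE41 (0.733). TEF and HLF are not neighbours in this order and were not tested against each other. The order was taken from the same 8 libraries as the tests, so the pairs and their direction were set by the tested data. Levels per length also depend on the deposited gene models, which differ most in span from RefSeq for TEF, BHLHE41, CIART and RORA. For BHLHE41, the lowest in this order, the model spans 6.359 kb and the RefSeq gene 5.1 kb. With 7 libraries the smallest p rises to 0.0156, and the number of called neighbours was 0 without any single library except control replicate 3, without which it was 3.

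Most of these regulators varied more between libraries of a group than the typical gene. The within-group SD of log2 CPM (counts scaled to library size with the TMM factors) was 0.74 for NFIL3 and 0.72 for RORA, at percentiles 94.2 and 93.9 of all genes tested. CIART followed with 0.56 (percentile 87.9), then DBP with 0.48, BHLHE40 with 0.42 (76.6), BHLHE41 with 0.37 (68.5) and HLF with 0.34 (64.1). TEF, at 0.25 (40.2), was the one regulator under the median of all genes, which was 0.28. NFIL3 spread more after melatonin, with an SD of 0.97 against 0.39 in controls, and HLF spread more in controls, with 0.47 against 0.14. These differences in spread were not tested.

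**Figure D4:**
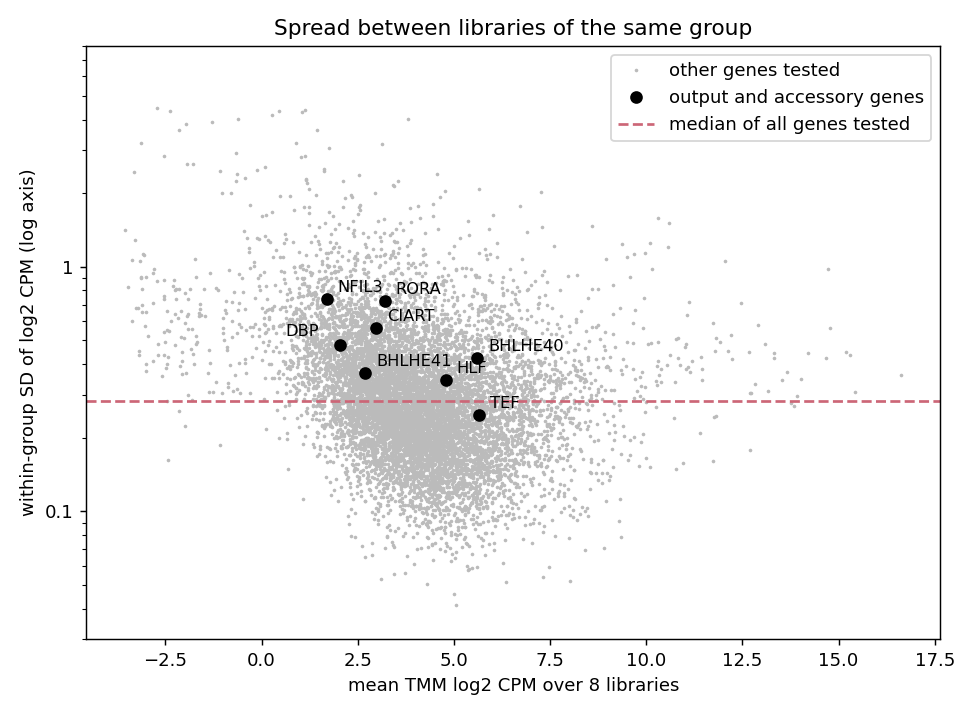
Within-group SD of log2 CPM (y axis, log scale) against mean log2 CPM (x axis) for all 9821 genes tested, with the 8 regulators marked. NFIL3 and RORA are the highest of the 8, with SDs of 0.74 and 0.72, and TEF at 0.25 lies below the median of 0.28.

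Single libraries recurred as the extremes. Control replicate 4 was the highest control in 6 of 8 regulators, all but NFIL3 and CIART, and in DBP, HLF, BHLHE40 and RORA it was 2.00, 1.97, 2.03 and 2.19 times the mean of the other controls. In all 9821 genes it stood far above its group in 322 (3.28%), by the criterion used for single libraries in the closing section, against 59, 18 and 75 in control replicates 1 to 3. Control replicate 2 was the lowest control in DBP, TEF, BHLHE41 and CIART. After melatonin, replicate 2 was lowest in DBP, TEF, HLF and CIART. Replicate 1 was highest in DBP, TEF, HLF and BHLHE41, and replicate 3 in NFIL3, CIART and RORA. These ranks are by FPKM, which carries no TMM correction, and several changed in TMM-scaled CPM. Melatonin replicate 4 then exceeded replicate 1 in TEF (52.6 against 41.9), HLF (29.3 against 26.9) and BHLHE41 (7.22 against 5.86). Melatonin replicate 3 was then lowest in DBP (2.57) and HLF (23.6). Among controls, replicate 1 was lowest in TEF (50.7) and, at 9.01 against 8.99 in replicate 4, highest in BHLHE41. The other ranks named here were the same on both scales.

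Across the 8 libraries, all 28 pairs of regulators were compared by log2 CPM with exact permutation of the pairings, and 0 pairs passed at an adjusted p under 0.05. The strongest relation was inverse, between TEF and NFIL3, the activator and repressor at the D-box. Pearson's r was -0.85 (exact permutation p = 0.00652, adjusted 0.161) and Spearman's rho -0.90 (exact permutation p = 0.00456, adjusted 0.128). Without the 2 libraries farthest from the TEF median, control replicate 4 and melatonin replicate 2, r was -0.98. After each group mean was removed it was -0.70 (exact permutation p = 0.0561), and r ran from -0.91 to -0.83 with each library left out in turn. On the log2(FPKM + 1) scale, which has no TMM factor and compresses low values, r was only -0.38.

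The 3 highest positive pairs were lower without control replicate 4. HLF with BHLHE40 gave r = 0.81 (exact permutation p = 0.0167, adjusted 0.161) and rho = 0.48 (exact permutation p = 0.243), and r fell to 0.49 without that library. DBP with TEF gave r = 0.80 (exact permutation p = 0.0172, adjusted 0.161) and rho = 0.64 (exact permutation p = 0.0962). Its r ran from 0.60, without control replicate 4, to 0.97, without melatonin replicate 1, was 0.73 with group means removed and was 0.44 without the 2 farthest libraries, control replicate 4 and melatonin replicate 3. DBP with HLF gave r = 0.73 (exact permutation p = 0.0414, adjusted 0.268) and rho = 0.50 (exact permutation p = 0.216). Without control replicate 4 its r was 0.25, and without the same 2 farthest libraries 0.03, so it rested on those libraries. Without control replicate 4, 1 of 28 pairs passed: DBP with RORA, at r = -0.97 over 7 libraries (exact permutation p = 0.000794, adjusted 0.0222), which with all 8 libraries was -0.44 (exact permutation p = 0.278, adjusted 0.471). The adjustment covers the 28 pairs of that fit alone, and 0 pairs passed when any other single library was left out. With all libraries kept, r for this pair was 0.89 among controls and -0.99 among melatonin libraries, so its sign differed between groups.

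**Figure D5:**
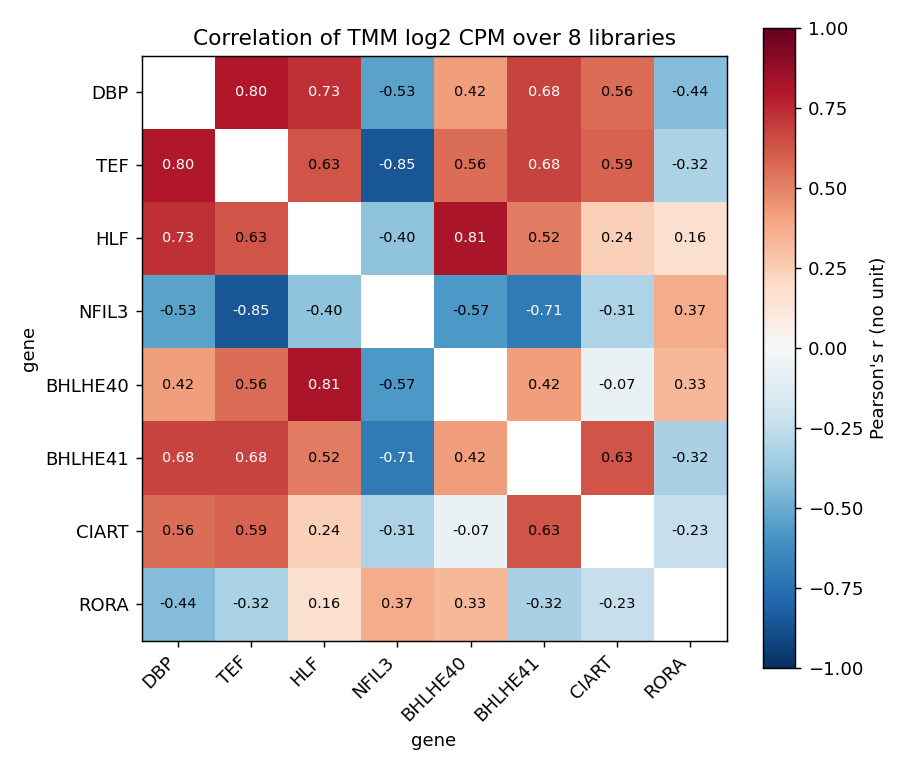
Pearson's r of log2 CPM over the 8 libraries for the 28 pairs of regulators, as numbers on a colour scale from -1 to 1. TEF with NFIL3 is the lowest, at -0.85, and HLF with BHLHE40 the highest, at 0.81.

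The genes most like each regulator across the 8 libraries were listed by Pearson's r of log2 CPM among 8853 genes with a symbol, as a description, since all points share library depth and scaling. NFIL3 ran closest with VIT, a matrix protein (0.99), RIPK3, a kinase of necroptosis (0.98), and SULF1, an extracellular sulfatase (0.98), and 74 genes exceeded 0.9. CIART ran closest with TNNI3, a troponin I (0.96), PIAS4, a SUMO ligase (0.95), and SMTN, smoothelin (0.94). TEF ran with DALRD3 (0.98), the retinoic acid receptor RARA (0.97) and SLC35E4 (0.96), DBP with STK11IP (0.97) and KMT5C (0.96), and HLF with MRPL13 (0.98) and SLC22A23 (0.97). BHLHE40 ran with KIAA0100 (0.97), the growth kinase MTOR (0.96) and MAPK9 (0.96), and RORA with the kinase RPS6KA3 (0.97), MIDEAS (0.95) and UHMK1 (0.95). BHLHE41 had the fewest such genes, 4 above 0.9, among them METTL21A (0.93) and ETFB (0.92). Each r here is among the highest picked from 8853 genes over only 8 libraries. No chance level was computed for these values or for the counts above 0.9.

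The core loop that drives these outputs was read beside them. Of 13 core genes 9 passed the level filter and 0 were called, with a median log2 fold change of 0.07. At an unadjusted p under 0.05, 1 lay higher and 0 lower, where 6.67% of all genes lay higher and 3.84% lower. The 1 gene was CRY1, the repressor of CLOCK and ARNTL, with 1.99 ± 0.370 FPKM in controls and 3.21 ± 0.912 FPKM after melatonin (SD, n = 4 each) and a log2 fold change of 0.59 ± 0.19 (SE; edgeR quasi-likelihood adjusted p = 0.440). ARNTL stood at 0.52 ± 0.34 (SE), and at 0.26 without control replicate 1. PER2 stood at -0.18 ± 0.28 (SE), ran from -0.05 without melatonin replicate 3 to -0.55 without melatonin replicate 1, and was -0.51 without both. PER1 (0.06 ± 0.44), CLOCK (0.07 ± 0.23), NR1D1 (0.11 ± 0.33) and NR1D2 (-0.02 ± 0.20) lay within 1 standard error of 0, and each of these 4 changed sign when single libraries were left out. PER3 was not analysed here.

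Among genes that control the turnover of clock proteins, 7 of 10 were tested, 0 were called, and 1 lay higher and 2 lower at an unadjusted p under 0.05 (median -0.11). USP2, a clock-controlled deubiquitinase, had 19.7 ± 3.16 FPKM in controls and 15.3 ± 1.43 FPKM after melatonin (SD, n = 4 each), a log2 fold change of -0.45 ± 0.17 (SE). Of 12 clock-controlled outputs of muscle all were tested, with 0 called, 2 higher and 1 lower at an unadjusted p under 0.05 (median 0.19). The shares over all genes tested, for this list and the turnover genes, were 6.67% higher and 3.84% lower. PDK4, the kinase that restrains pyruvate use, had 115 ± 46.2 and 343 ± 197 FPKM, a log2 fold change of 1.41 ± 0.39 (SE; adjusted p = 0.440 in edgeR's quasi-likelihood test and 0.0323 in DESeq2). PDK4 stood at 0.83 without melatonin replicates 1 and 3. MYOD1, the myogenic factor, stood at -1.18 ± 0.39 (SE).

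Lists of stimuli known to act on some of these regulators were read in the same way, against 6.67% of all genes higher and 3.84% lower at an unadjusted p under 0.05. Of 9 glucocorticoid targets tested, 0 were called, 3 lay higher and 1 lower at an unadjusted p under 0.05 (median 0.11), and 7 of the 9 lay above 0. The 3 higher genes were ZBTB16 at 1.25 ± 0.35, CEBPD at 1.92 ± 0.58 (DESeq2 adjusted p = 0.0476) and FKBP5 at 1.60 ± 0.61 (SE), the last 2 named after their values were seen. They stood at 1.20, 1.06 and 1.02 without melatonin replicates 1 and 3. The 1 lower gene was DUSP1, a phosphatase, at -1.42 ± 0.34 (SE; adjusted p = 0.440 in edgeR's quasi-likelihood test and 0.0185 in DESeq2). Of 9 hypoxia targets 0 were called and 2 lay higher at an unadjusted p under 0.05 (median -0.05), the demethylase KDM3A at 0.55 ± 0.16 and the collagen hydroxylase P4HA1 at 1.47 ± 0.50 (SE). P4HA1 was 0.69 without melatonin replicate 1 and 0.27 without melatonin replicates 1 and 3, the libraries with raised matrix markers. Of 7 immediate early genes 0 were called and 1 lay lower at an unadjusted p under 0.05 (median -0.30), the nuclear receptor NR4A1 at -1.06 ± 0.40 (SE), and at -0.65 without melatonin replicates 1 and 3. FOS stood at -1.35 ± 0.87 (SE), at -0.37 without control replicate 4 and at -2.41 without melatonin replicates 1 and 3. The median over all genes tested was -0.00.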

How the data were processed

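Poly(A) RNA of 8 muscle samples, 4 per group, was made into strand-marked (dUTP) libraries, per the labels' protocols. The authors' deposited table gives, per its file headers, a whole-number count and an FPKM value for each gene and library. The submitters' processing notes name Sscrofa11.1 as the build, and FastQC, StringTie and DESeq2 as tools, with no role. Aligner, annotation release and use of strand in counting: not given in the sources used here. No annotated gene in the table overlaps a regulator described here.

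The 8 genes and all lists were chosen with earlier results of these data known. Groups came from the labels. No library duplicated another (lowest chi-square per degree of freedom between libraries, 53.2). From the table of gene names 128 symbols were added. Genes with a mean of at least 1 FPKM (9821) were tested on counts in edgeR 4.0.16 under R 4.3.3. The test was the legacy quasi-likelihood F test after TMM scaling, without covariates, with Benjamini-Hochberg adjustment over all genes tested and calls at an adjusted p under 0.05. Common biological variation came to 28.0% (coefficient of variation). A standard error is the log2 fold change divided by the root of F. FPKM values carry no TMM correction, fold changes do. The fit was also run on simulated counts with 200 changed genes. The outcome is not reported here, so the text does not state which fold changes it could call. DESeq2 1.42.0, limma 3.58.1 with pseudocounts of 1 and 0.1, other filters, a replicate block and left-out libraries were alternatives. Permutation tests used SciPy 1.17.1. Named were all 8 regulators, the 2 genes of each other list with the smallest p, 7 core clock genes, and the 3 genes most like each regulator, except for some results that are not reported here. Cell type marker lists are given by their summed levels. Promoter sequences were not used here, and the planned motif search was not run.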

Additional observations from a re-analysis of the deposited data

Results flagged for a closer look

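In 50 groups of 4 libraries (25 genes with a reported fold change), 5 groups had 1 library whose gap to its nearest neighbour took up a share of the group's range above Dixon's limit for 4 samples, where chance gives about 1 group in 20. Among the 8 regulators these were BHLHE40 in control replicate 4 (24.77 FPKM), RORA in control replicate 4 (2.021 FPKM) and CIART in control replicate 2 (2.338 FPKM). The same limit was passed by the clock repressor PER2 in melatonin replicate 1 (4.505 FPKM) and by PDK4 in control replicate 1 (184.0 FPKM). Control replicate 4 passed it on the high side in 322 of 9821 genes, so BHLHE40 and RORA share a library that stood high in many genes. The cause was not tested.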

How the results depend on the processing

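Of 138 values of the 8 regulators under the alternatives, 133 kept their direction and stayed uncalled, and 5 took the other sign. HLF ran from -0.36 to 0.051 with each library left out. BHLHE40 was 0.0023 and 0.0057 in limma with pseudocounts of 1 and 0.1, ran from -0.27 to 0.18 with each library left out, and was 0.16 without melatonin replicates 1 and 3. Called genes numbered 65 in DESeq2, among them PDK4 (1.41) and DUSP1 (-1.42), and 0 to 15 with each library left out. Genes at an unadjusted p under 0.05 numbered 557 and 543 in limma, 1789 with no filter, 434 at a mean of at least 5 FPKM, 568 to 1882 with each library left out and 474 without melatonin replicates 1 and 3. Neighbours called in the order of levels numbered 0 to 3 and pairs called 0 to 1 with each library left out. Under the same omission PER1 ran from -0.26 to 0.40, NR1D1 from -0.071 to 0.47, NR1D2 from -0.24 to 0.10 and CLOCK from -0.063 to 0.22, and the level differences from -0.15 to 0.047 (CIART, HLF), -0.12 to 0.17 (NFIL3, RORA) and -0.0084 to 0.23 (RORA, BHLHE41). Without melatonin replicates 1 and 3 PER1 was -0.28 and NR1D2 0.20, and NR1D2 was 0.029 and 0.030 in limma and 0.016 at a mean of at least 5 FPKM. The medians of matrix and tendon markers were 1.16 and 5.70, and 0.16 and -0.14 without melatonin replicates 1 and 3. Apart from the fewer libraries left in those fits, the cause was not tested.

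The labels do not say whether replicate numbers pair the libraries. Same-numbered deviations correlated at 0.18, 0.07, 0.18 and -0.02, and 2 of 4 controls correlated best with their own number. These values were not tested against unpaired numbering, so they cannot decide whether the numbers pair animals. A fit with the replicate block called 0 genes, with 1061 at an unadjusted p under 0.05. In that edgeR quasi-likelihood fit the unadjusted p was 0.00609 for TEF, 0.00860 for CIART and 0.0203 for NFIL3. Their adjusted p-values were 0.395, 0.425 and 0.425. Depth limited NFIL3 and DBP most, with lowest counts of 90 and 144.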
